A study of Homo sapiens with 48 samples.

Results

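VCP, also called p97, and 9 of its cofactors were followed at the mRNA level in 8 human cancer cell lines treated with carfilzomib, an inhibitor of the proteasome, or with its solvent DMSO. The 10 genes were taken by symbol from the count table, which holds 33892 rows, and each has 1 row. They are VCP itself, its ubiquitin-binding partners UFD1, NPLOC4 and NSFL1C, the UBX domain adaptors FAF1, FAF2, UBXN1, UBXN4 and UBXN6, and the deacetylase HDAC6. The lines were RKO and DLD-1 (colon cancer), H-23 and H-1299 (lung cancer), PANC-1 and CAPAN-2 (pancreatic cancer), and H-929 and RPMI (multiple myeloma). Every line was kept for 24 h either with DMSO or with carfilzomib at its own IC50 for proteasome activity, which gives 16 groups of 3 biological replicates and 48 libraries in all. The doses themselves are not used here. By this design the lines were to be matched on proteasome inhibition and not on concentration. The inhibition reached in each line cannot be read from the counts. A tumour type is represented by only a pair of lines, and no normal cells were included.

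VCP is an AAA ATPase that uses ATP to pull ubiquitin-tagged proteins out of membranes, chromatin and complexes, after which most of them go to the proteasome. It does not pick its clients alone: the UFD1 and NPLOC4 heterodimer binds ubiquitin chains and recruits VCP for most degradation tasks, while NSFL1C (p47) directs it to membrane fusion and other roles. UBX domain proteins bind the N-terminal part of VCP and place it, for example at the endoplasmic reticulum. HDAC6 binds both ubiquitin and VCP and moves aggregated proteins along microtubules into aggresomes when degradation fails.

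Library totals ran from 9.12 to 64.4 M counts, with the carfilzomib libraries of H-929 the lowest. The smallest count of any of the genes was 215 (HDAC6), apart from FAF1 in RPMI, which is described below. Levels are given in CPM, a gene's count over the total of its library in M, after TMM scaling within a line, with SD over n = 3 libraries. A change is a log2 fold change with its standard error (SE) from edgeR's quasi-likelihood test, and it was called at a Benjamini-Hochberg adjusted p under 0.05 over all genes tested in the line. All 6 plasma cell markers examined exceeded 1 CPM after DMSO only in H-929 and RPMI. All 5 epithelial markers exceeded 1 CPM in DLD-1, H-23, PANC-1 and CAPAN-2, against 3 in RKO, which had no counts of KRT19, and 2 in H-1299, which had none of CDH1. The myeloma line RPMI passed it for 4 of them, with EPCAM at 118 CPM, and H-929 for 1. Of 4 colon markers, 3 exceeded 1 CPM in DLD-1 and 1 (CDX2) in RKO, where CDX1 and GPA33 had no counts. H-23 and CAPAN-2, which are not colon lines, each passed it for 2. PANC-1 passed that level for all 4 duct markers examined, CAPAN-2 for 3. The lung line H-23 also passed it for all 4, and the colon line DLD-1 for 3. Of the 3 lung markers found, 2 did in H-23 and 0 in H-1299, none above 2.38 CPM in these lines. The lung marker NAPSA was highest in the myeloma line H-929, at 41.8 CPM.

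With carfilzomib, genes of the group changed in 7 of the 8 lines, and most of the changes were rises. UFD1, NPLOC4 and NSFL1C rose in each of the 7 lines, VCP and UBXN1 in 6, and HDAC6 was the gene that fell most often, in 3. Among the 11622 genes that every line tested, 1.33% rose in at least 7 lines and 4.06% in at least 6. A fall in at least 3 lines was common, at 31.5%. Of the 79 gene and line pairs that could be tested, 49 were called higher and 6 lower, against 20.8% higher and 21.1% lower among all 129977 gene and line pairs. No gene of the group was called in RKO, where 3.62% of all genes were called higher and 5.29% lower. In DLD-1, 5 were higher and none lower (all genes 10.9% and 12.1%). In H-23, 8 were higher and 1 lower (17.7% and 16.2%), and in H-1299, 8 were higher and 2 lower (29.8% and 31.3%). PANC-1 had 6 higher and 2 lower (20.5% and 18.2%), and CAPAN-2 had 9 higher and none lower (25.7% and 26.7%). In H-929, 4 were higher and 1 lower (26.4% and 26.2%), and in RPMI all 9 genes tested were higher (31.3% and 32.2%).

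The size of these changes differed between the lines. The median log2 fold change of the 10 genes was lowest in RKO at -0.00, followed by PANC-1 (0.16), H-929 (0.17), DLD-1 (0.20) and H-23 (0.27). It was higher in H-1299 (0.62), CAPAN-2 (0.88) and RPMI (0.93, without FAF1). The median of all genes tested, which TMM scaling holds near 0, stayed between -0.02 and 0.03 in each line. Taken without sign, the median change of the group was below that of all genes in RKO (0.09 against 0.13) and H-929 (0.28 against 0.51). It was above that of all genes in DLD-1 (0.20 against 0.16), H-23 (0.27 against 0.19) and PANC-1 (0.25 against 0.18). The same held in H-1299 (0.62 against 0.43), CAPAN-2 (0.88 against 0.34) and RPMI (0.93 against 0.47). The 3 carfilzomib libraries did not overlap the 3 DMSO libraries for 2 of the 10 genes in RKO (28.2% of all genes) and for 6 in DLD-1 (39.9%). They did not overlap for all 10 in H-23 (45.7%), H-1299 (66.2%) and CAPAN-2 (59.3%), for 9 in PANC-1 (49.6%), for 7 of 10 in H-929 (59.4%) and for all 9 tested in RPMI (68.2%).

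**Figure D1:**
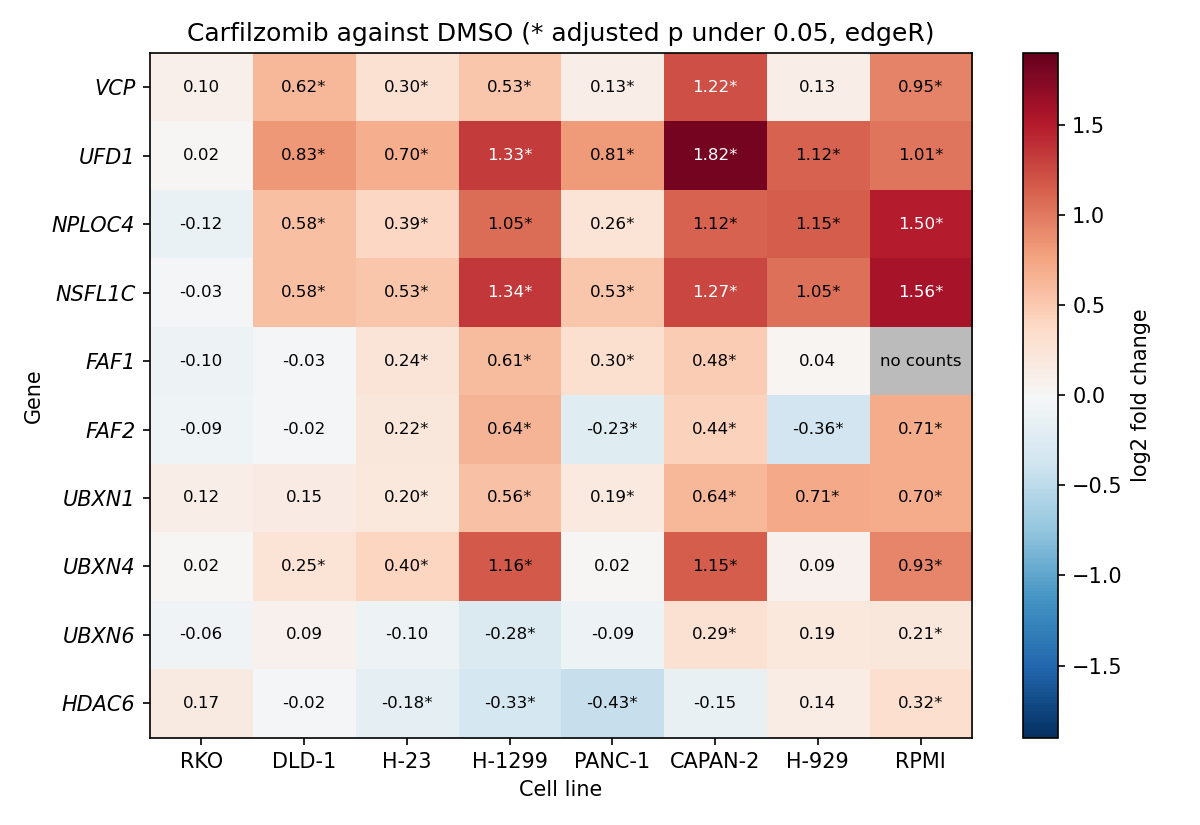
Log2 fold change of each gene (rows) in each cell line (columns), carfilzomib against DMSO, red for higher and blue for lower, with a star where the adjusted p in edgeR was under 0.05. UFD1, NPLOC4 and NSFL1C are starred as higher in 7 lines, RKO has no star, and FAF1 has no counts in RPMI.

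VCP, the ATPase itself, was called higher in 6 lines, by 1.09-fold in PANC-1 to 2.33-fold in CAPAN-2. In CAPAN-2 its level was 361, 392 and 355 CPM with DMSO and 866, 868 and 848 CPM with carfilzomib. In RPMI it was 436, 445 and 475 CPM with DMSO and 881, 894 and 843 CPM with carfilzomib. These are the lines with the clearest separation, with log2 fold changes of 1.22 ± 0.056 (SE) and 0.95 ± 0.053 and adjusted p of 3.88e-10 and 3.53e-09 in edgeR. DLD-1 libraries held 683, 691 and 668 CPM with DMSO and 1068, 1009 and 1069 CPM with carfilzomib (0.62 ± 0.039). In H-1299, VCP stood at 1106, 1178 and 1166 CPM with DMSO and 1641, 1725 and 1622 CPM with carfilzomib (0.53 ± 0.041).

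Smaller rises of VCP were called in H-23 and PANC-1. H-23 libraries went from 1465, 1417 and 1455 CPM to 1778, 1766 and 1778 CPM (0.30 ± 0.024, adjusted p in edgeR 4.58e-07). PANC-1 libraries went from 1000.3, 979 and 979 CPM to 1065, 1082 and 1085 CPM (0.13 ± 0.024, adjusted p in edgeR 0.000982). In both lines the carfilzomib libraries lay above all DMSO libraries. The PANC-1 call was lost in one joint fit of all 48 libraries (adjusted p in edgeR 0.0721).

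VCP was not called in RKO and H-929. RKO held 427, 382 and 418 CPM with DMSO and 419.9, 447 and 449 CPM with carfilzomib, which overlap (0.10 ± 0.049, adjusted p in edgeR 0.237). H-929 held 519.8, 525 and 540.0 CPM with DMSO and 592, 557 and 581 CPM with carfilzomib (0.13 ± 0.066, adjusted p in edgeR 0.126). The H-929 libraries did not overlap, and there the call rested on the filter: with only genes of at least 50 counts on average, the value was 0.24 and passed (adjusted p in edgeR 0.00703). In one joint fit of all 48 libraries the direction turned, to -0.04 ± 0.048 (adjusted p in edgeR 0.545), so no direction can be read for VCP in H-929. The common scaling of the joint fit sets the log2 fold changes of H-929 lower by 0.163 than the fit of that line alone. This shift is shared by the genes of the line. Under the filter of at least 50 counts the median of the 10 genes in H-929 was 0.28 in place of 0.17, and without any filter it was 0.09.

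The region before the RefSeq start of VCP was searched for motifs of stress-responsive factors, since genes of the proteasome are known targets of such factors. RefSeq windows of 250 bases before the start (GRCh38.p14) were found for 9 of the 10 genes, with 12 windows in all, and UFD1 was not among them. The core of the antioxidant response element, TGACNNNGC on either strand, is bound by NRF2 and by NFE2L1, the factor known to drive proteasome genes. It occurred in 3 of the 12 windows, against 10.9% of 35116 windows and 8 of 35 windows of proteasome subunits (22.9%). These were windows of VCP, FAF2 and HDAC6, for HDAC6 only the window at chrX:48801148-48801397. The stretches of 30 bases that hold it are printed because these genes moved differently, with the core in capitals (for HDAC6 as its reverse complement) and on the strand of the gene. They lie at chr9:35072796-35072825 (VCP, minus strand), chr5:176448355-176448384 (FAF2), chrX:48801291-48801320 and chrX:48801368-48801397 (HDAC6, plus strands).

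VCP: ttgcggccaatTGACGTGGCgttactaggc
FAF2: agttccggcgggTGACGGTGCggacgggtc
HDAC6 upstream match: cctcacatttaGCATCGTCAccacgcctat
HDAC6 match at the start: gccacaaccagcccgcccgcGCTACGTCAt

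The stretches of VCP and FAF2, and 21 bases of that at the start of HDAC6, also fall in exons of other GENCODE transcripts of the same genes. VCP rose in 6 lines, FAF2 was higher in 4 and lower in 2, and HDAC6 was higher in 1 and lower in 3, so genes with the same letters did not share a direction. The heat shock element core (GAANNTTC or TTCNNGAA, either strand) occurred in 11.6% of all windows and in those of FAF1, FAF2 and UBXN6. By GENCODE positions the windows of FAF2 and UBXN6 lie inside their genes, as do those of VCP, NPLOC4 and NSFL1C. The HDAC6 windows other than chrX:48801148-48801397 also lie inside the gene. All 250 bases of the VCP window fall in GENCODE exons of VCP, so by that annotation the window is not upstream of the gene. The endoplasmic reticulum stress element, CCAAT and CCACG separated by 9 bases of any kind, occurred in 0.074% of windows and in no window of these genes. No match overlapped another. A count chosen after seeing the sequence found 5 CCAAT boxes, on either strand, in the VCP window, and 0.319% of all windows held as many. A match of letters is a description and was not tested as a binding site.

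UFD1, which binds ubiquitin chains next to NPLOC4, was called higher in 7 lines. In CAPAN-2 it went from 39, 41.6 and 36.4 CPM with DMSO to 136, 137 and 138 CPM with carfilzomib, 3.52-fold (1.82 ± 0.061, adjusted p in edgeR 3.39e-11), the largest change of any of the 10 genes in any line. In H-1299 it was 103, 104 and 102 CPM with DMSO and 264, 255 and 258 CPM with carfilzomib (1.33 ± 0.039). No library of either line came near the other treatment. H-929 held 71.3, 75 and 73.6 CPM with DMSO and 160.4, 169 and 149 CPM with carfilzomib (1.12 ± 0.082). In RPMI, UFD1 was at 37.3, 33.5 and 38.7 CPM with DMSO and 72.2, 73.3 and 75.5 CPM with carfilzomib (1.01 ± 0.065).

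The other lines had rises of UFD1 below 2-fold. DLD-1 libraries went from 58.7, 57.4 and 57.5 CPM to 109, 95.2 and 105 CPM (0.83 ± 0.056). PANC-1 libraries went from 51.2, 48.4 and 51 CPM to 87.5, 86.8 and 89.7 CPM (0.81 ± 0.039). UFD1 was thus the gene of the group with the largest rise in DLD-1, H-23, PANC-1 and CAPAN-2. H-23 libraries went from 70.2, 67.2 and 69.3 CPM to 108, 112 and 115 CPM (0.70 ± 0.040). The largest adjusted p in edgeR among the 7 lines was 7.17e-06, in DLD-1. RKO libraries overlapped, with 45.4, 47.8 and 46.6 CPM against 44.8, 44.8 and 52.3 CPM (0.02 ± 0.074, adjusted p in edgeR 0.903).

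**Figure D2:**
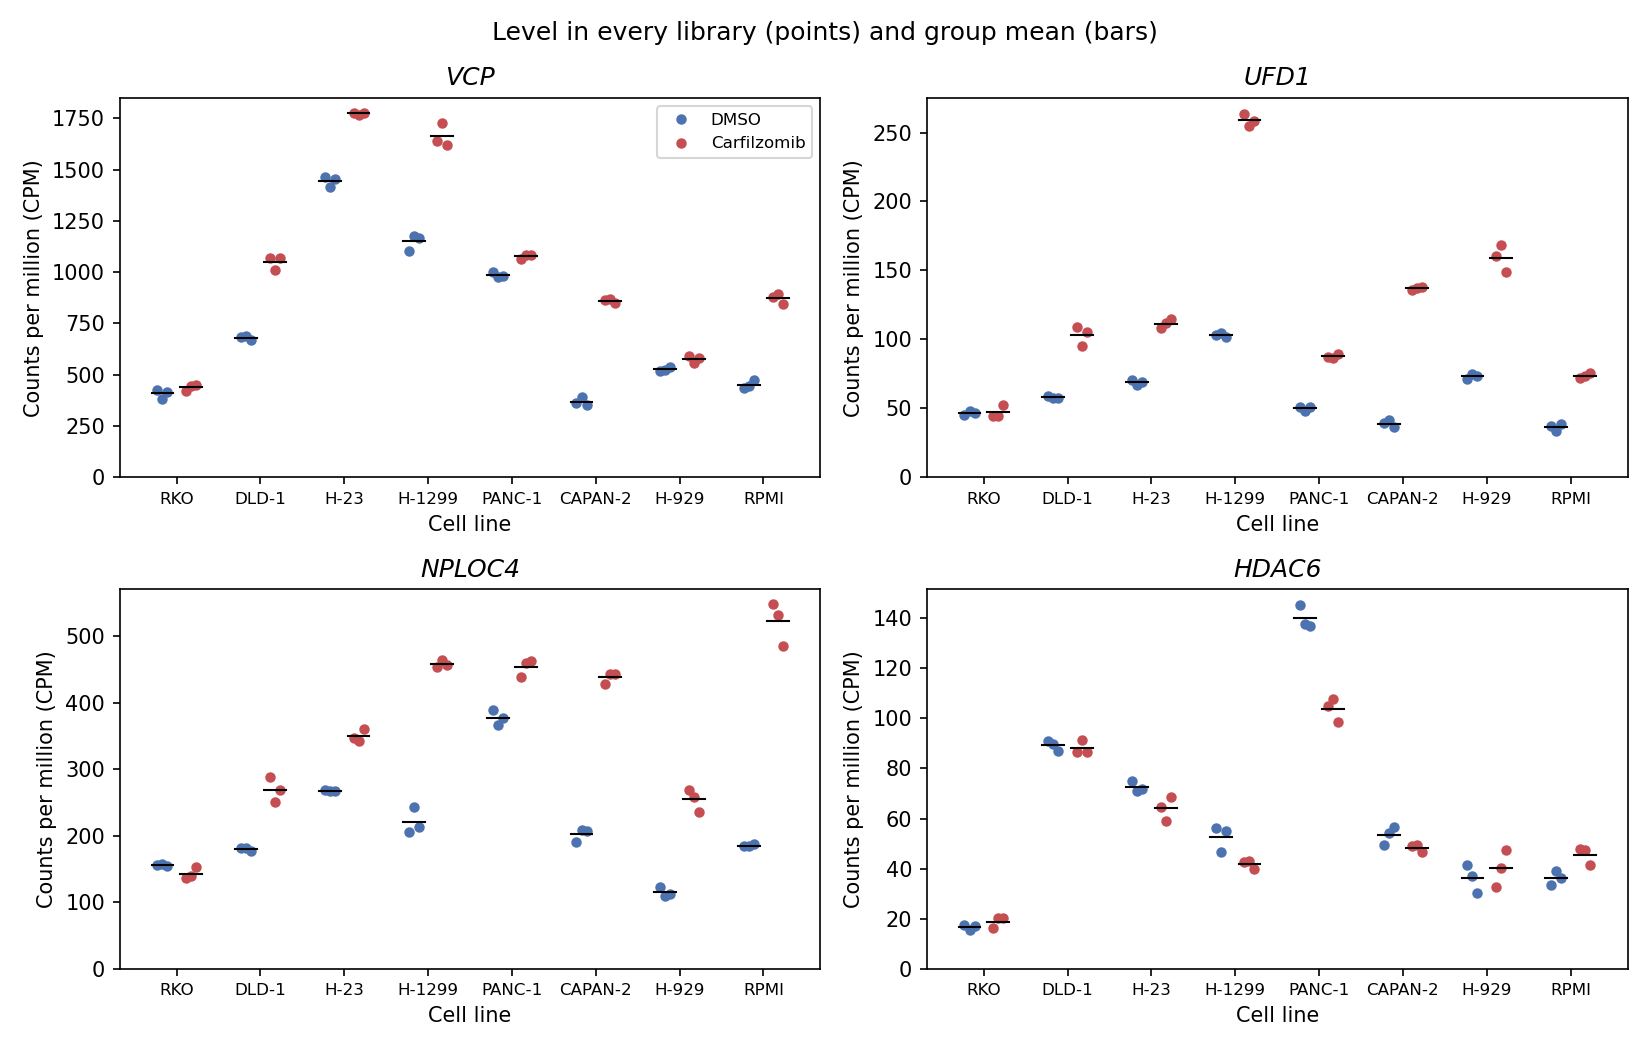
Level in CPM (vertical axis, from 0) of VCP, UFD1, NPLOC4 and HDAC6 in every library of the 8 cell lines, blue for DMSO and red for carfilzomib, with bars at the group means. The carfilzomib libraries of UFD1 lie above the DMSO libraries in every line but RKO, and those of HDAC6 lie below them in H-23, H-1299, PANC-1 and CAPAN-2.

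NPLOC4, the other part of the heterodimer, was called higher in the same 7 lines, with its largest changes in the myeloma lines and in CAPAN-2. RPMI libraries held 184, 184 and 187 CPM with DMSO and 549, 533 and 486 CPM with carfilzomib, 2.82-fold (1.50 ± 0.057, adjusted p in edgeR 1.06e-10). H-929 libraries held 123, 109 and 112 CPM with DMSO and 269, 259 and 236 CPM with carfilzomib (1.15 ± 0.082, adjusted p in edgeR 6.1e-08). The heterodimer thus rose in H-929, where VCP was not called. In CAPAN-2, NPLOC4 went from 191, 209 and 207 CPM to 428, 444 and 444 CPM (1.12 ± 0.056), and in H-1299 from 206, 243 and 213 CPM to 454, 464 and 456 CPM (1.05 ± 0.055).

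In the remaining lines, as in CAPAN-2 and H-1299, the change of NPLOC4 lay below that of UFD1, a difference between genes that was not tested. DLD-1 libraries went from 182, 182 and 176 CPM to 288, 250.1 and 269 CPM (0.58 ± 0.054). H-23 libraries went from 269, 268 and 267 CPM to 347, 343 and 361 CPM (0.39 ± 0.033). In each of these lines the treatments did not overlap. PANC-1 libraries went from 389, 366 and 377 CPM to 439, 459 and 462 CPM (0.26 ± 0.033, adjusted p in edgeR 3.61e-05). RKO was the exception, with 155, 157 and 154 CPM with DMSO and 137, 139.7 and 152 CPM with carfilzomib. All RKO libraries with carfilzomib were below those with DMSO, yet the difference did not pass (-0.12 ± 0.049, adjusted p in edgeR 0.149).

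UFD1 and NPLOC4 act as a pair, so their ratio was taken per kb of exon (GENCODE 29 lengths of 8736 and 9574 bases). These lengths merge the exons of all annotated transcripts of a gene and are not those of 1 mRNA. The size of a ratio depends on this choice and is not a ratio of molecules. Whether NPLOC4 over UFD1 is lower or higher with carfilzomib does not depend on it. NPLOC4 over UFD1 was lower with carfilzomib, with no overlap of the libraries, in 6 of the 8 lines. It was 6.86 ± 0.098 (SD, n = 3) with DMSO and 4.70 ± 0.125 with carfilzomib in PANC-1. CAPAN-2 had 4.74 ± 0.382 and 2.92 ± 0.0436, and H-23 had 3.55 ± 0.0800 and 2.87 ± 0.0626. The means in the same order were 3.05 and 2.76 in RKO, 2.84 and 2.38 in DLD-1, and 1.95 and 1.61 in H-1299. The ratio lay the other way in RPMI, at 4.64 ± 0.331 and 6.48 ± 0.546, and was 1.43 ± 0.126 and 1.46 ± 0.0669 in H-929. The ranges did not overlap in RPMI and overlapped in H-929. VCP over the mean of the pair was lower with carfilzomib without overlap in 5 lines, among them H-929, at 4.74 ± 0.359 against 9.54 ± 0.388, and H-1299, at 7.89 ± 0.246 against 12.2 ± 0.515. The others were H-23 (13.2 against 14.8), PANC-1 (6.90 against 8.03) and RPMI (5.10 against 7.07). In RKO it was higher with carfilzomib without overlap, at 7.95 ± 0.396 against 6.98 ± 0.485. In CAPAN-2, where VCP rose most, that ratio was 5.15 ± 0.130 against 5.31 ± 0.216 and overlapped, as it did in DLD-1 (9.69 against 9.84). With 3 libraries a group no permutation test of a ratio could pass, and none was run.

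NSFL1C, the p47 adaptor that binds VCP in competition with the heterodimer, was also called higher in 7 lines. Its largest change was in RPMI, from 47.6, 47 and 49.5 CPM with DMSO to 152, 132 and 143 CPM with carfilzomib, 2.96-fold (1.56 ± 0.062, adjusted p in edgeR 1.47e-10). H-1299 and CAPAN-2 followed, at 1.34 ± 0.063 and 1.27 ± 0.058, and H-929 at 1.05 ± 0.099. DLD-1, H-23 and PANC-1 lay close together at 0.58 ± 0.076, 0.53 ± 0.057 and 0.53 ± 0.037. RKO had 109, 105 and 101 CPM with DMSO and 108, 99.2 and 101 CPM with carfilzomib, which overlap (-0.03 ± 0.052, adjusted p in edgeR 0.814). A call of higher in at least 7 lines, as for UFD1, NPLOC4 and NSFL1C, was made for 1.33% of the 11622 genes that every line tested, and one in at least 6, as for VCP and UBXN1, for 4.06%. For at least 5 lines, as for UBXN4, the share was 9.25%, and for at least 4, as for FAF2, 17.9%.

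FAF2 (UBXD8) and UBXN4 (erasin) are membrane adaptors that bring VCP to the endoplasmic reticulum for the removal of misfolded proteins, FAF2 also at lipid droplets. UBXN4 was called higher in 5 lines, with 169, 161 and 166 CPM with DMSO and 370.2, 356 and 383 CPM with carfilzomib in H-1299 (1.16 ± 0.042, adjusted p in edgeR 3.5e-10). CAPAN-2 (1.15 ± 0.053) and RPMI (0.93 ± 0.048) followed, and H-23 (0.40 ± 0.044) and DLD-1 (0.25 ± 0.065) had smaller rises. The treatments did not overlap in any of these 5 lines, nor in PANC-1, where no call was made. The DLD-1 call was lost in 3 of the 6 fits that left out 1 library: DMSO replicate 2, carfilzomib replicate 1 and carfilzomib replicate 3 (adjusted p in edgeR up to 0.0842). UBXN4 was not called in RKO (0.02 ± 0.044), PANC-1 (0.02 ± 0.031) or H-929 (0.09 ± 0.090, but -0.08 in the joint fit of all libraries).

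FAF2 moved in both directions. It was called higher in H-23 (0.22 ± 0.038), H-1299 (0.64 ± 0.044), CAPAN-2 (0.44 ± 0.056) and RPMI (0.71 ± 0.053). In PANC-1 it fell from 263, 243 and 257 CPM to 210.0, 221 and 219 CPM (-0.23 ± 0.037, adjusted p in edgeR 0.000265). In H-929 it fell from 120.1, 126 and 128 CPM to 111, 95.4 and 84.9 CPM (-0.36 ± 0.098, adjusted p in edgeR 0.00673), and neither line had an overlap. FAF2 and UBXN4 thus lay at -0.36 and 0.09 in H-929 while UFD1, NPLOC4 and NSFL1C each exceeded 1. RKO (-0.09 ± 0.049) and DLD-1 (-0.02 ± 0.047) gave no call for FAF2.

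FAF1, the paralogue of FAF2, is a soluble adaptor of VCP and its heterodimer, named for its binding to the death receptor FAS. It was called higher in H-23 (0.24 ± 0.046), H-1299 (0.61 ± 0.041), PANC-1 (0.30 ± 0.037) and CAPAN-2 (0.48 ± 0.058), so in PANC-1 it rose where FAF2 fell. In PANC-1 the levels of FAF1 were 107, 101 and 101 CPM with DMSO and 125, 126 and 129.7 CPM with carfilzomib (adjusted p in edgeR 2.79e-05). No call was made in RKO (-0.10 ± 0.064), DLD-1 (-0.03 ± 0.042) or H-929 (0.04 ± 0.090, but -0.13 in the joint fit).

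FAF1 had no count in any of the 6 RPMI libraries, whose totals were 17.6 to 36.6 M. A count of 0 allows a level of up to 0.0820 to 0.171 CPM in a single library, taken as 3 counts of its total and covering counting error only. The other 7 lines had 74.5 to 116 CPM of FAF1 after DMSO, and 7637 to 29269 counts over their 6 libraries. FAF1 lies at chr1:50437028-50960263 on the minus strand (GENCODE 29, GRCh38). CDKN2C, which encodes an inhibitor of the cell cycle kinases CDK4 and CDK6, starts next to it at 50960745 on the plus strand and also had 0 counts in RPMI, against 675 (RKO) to 20508 (H-929) in the others. The antisense gene FAF1-AS1 had 2 counts in RPMI, and the pseudogenes PHBP12 and MRPS6P2 inside FAF1 had 0, with 543, 186 and 83 counts or more in every other line. Beyond CDKN2C, counts were present again at LINC01562, which had 218 in RPMI against 6 to 35 in the others, and then at RNF11 (11328 counts), EPS15 (14332) and OSBPL9 (44895). On the other side, DMRTA2 had 8 counts in RPMI, against 549 to 2159 in RKO, DLD-1 and H-23 but only 1 to 17 in the remaining 4 lines. The pseudogene FCF1P6 beyond it had 8 in RPMI and 6 to 53 in the others, so where the counts stop on that side cannot be read.

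Only 3 genes had no count in RPMI while exceeding 10 CPM after DMSO in each other line: FAF1, ABHD17B and BEX3. The same rule gave 4 genes in RKO, 2 in DLD-1, 1 in CAPAN-2 and none in the other 4 lines. The names outside the group were listed after their values were seen. The RefSeq window before the start of FAF1, chr1:50960268-50960517 on the minus strand, lies between the starts of FAF1 and CDKN2C and is shown because both its neighbours were without counts in RPMI. Its heat shock element core is in capitals.

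FAF1 window: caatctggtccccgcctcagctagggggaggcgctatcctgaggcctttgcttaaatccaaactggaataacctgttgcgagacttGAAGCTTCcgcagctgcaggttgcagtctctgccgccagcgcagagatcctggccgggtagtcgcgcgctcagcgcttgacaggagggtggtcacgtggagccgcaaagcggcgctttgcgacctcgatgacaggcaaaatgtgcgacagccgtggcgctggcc

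**Figure D3:**
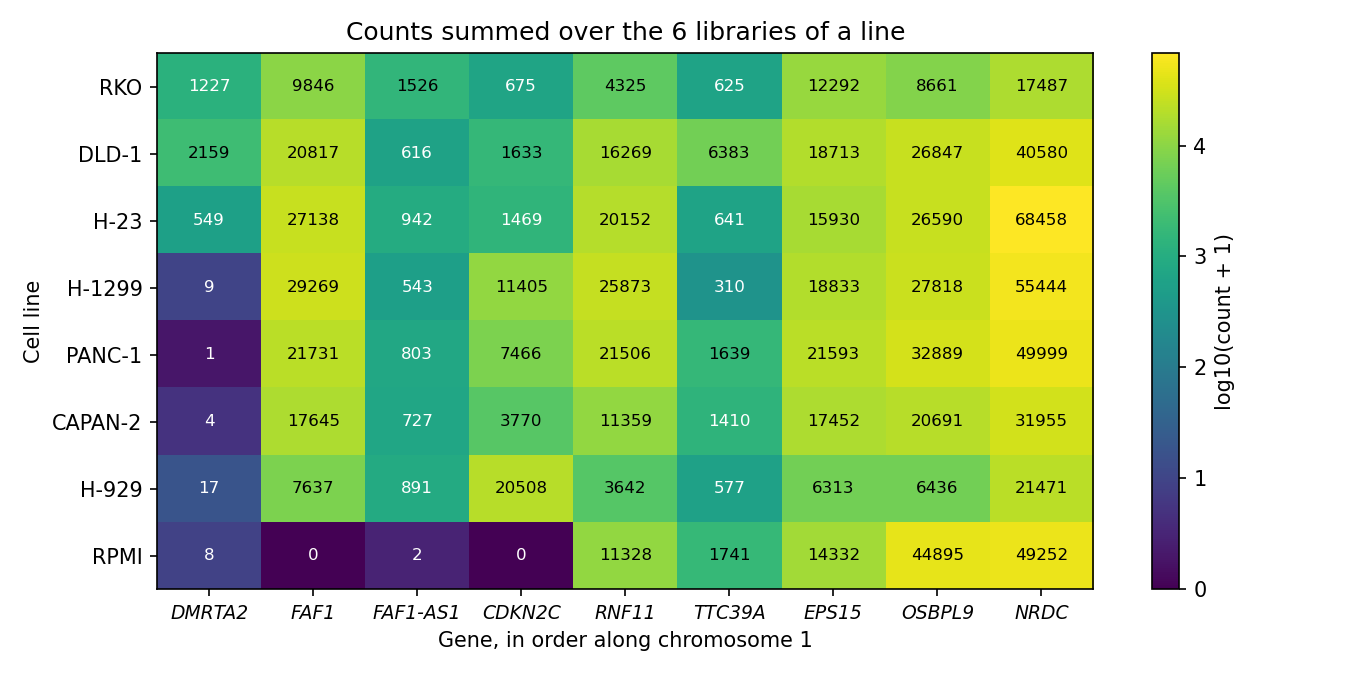
Counts summed over the 6 libraries of each line (rows) for FAF1 and 8 annotated genes beside it, not all that lie there, in their order along chromosome 1 (columns), coloured by log10(count + 1). In RPMI, FAF1 and CDKN2C are at 0 and FAF1-AS1 at 2, while the genes shown from RNF11 on have at least 1741 counts.

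UBXN1 (SAKS1) binds ubiquitin chains and VCP and was called higher in 6 lines, with modest changes. They were 0.71 ± 0.086 in H-929, 0.70 ± 0.052 in RPMI, 0.64 ± 0.058 in CAPAN-2, 0.56 ± 0.046 in H-1299, 0.20 ± 0.040 in H-23 and 0.19 ± 0.042 in PANC-1. The largest, in H-929, was from 115, 114 and 104 CPM to 192, 164 and 191 CPM, and neither treatment overlapped the other. RKO (0.12 ± 0.047, adjusted p in edgeR 0.139) and DLD-1 (0.15 ± 0.061, adjusted p in edgeR 0.106) did not pass. Scaled by library totals alone, both passed (adjusted p in edgeR 0.0436 and 0.0463).

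UBXN6 (UBXD1) works with VCP, PLAA and YOD1 on damaged lysosomes and endosomes. It was called higher in CAPAN-2 (0.29 ± 0.068) and RPMI (0.21 ± 0.065) and lower in H-1299, where it went from 87.8, 83.7 and 90.4 CPM to 69, 77.9 and 69 CPM (-0.28 ± 0.057, adjusted p in edgeR 0.000945). The RPMI call was lost without DMSO replicate 3 or carfilzomib replicate 2 (adjusted p in edgeR up to 0.0836) and in the joint fit of all libraries (0.179). The other 5 lines lay between -0.10 and 0.19 and were not called, although H-929 passed at 0.30 with only genes of at least 50 counts on average (adjusted p in edgeR 0.0107). UBXN6 overlaps CHAF1A on the opposite strand, which had 136723 counts in all libraries against 102836 for UBXN6, and the use of strand in counting is not given in the sources used here. Its values are therefore uncertain. Of the other genes, NPLOC4 overlaps TSPAN10 (2424 counts against 399471) and FAF1 overlaps FAF1-AS1 (6050 against 134083).

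HDAC6, the aggresome deacetylase, was lower in 3 lines and higher in 1. Of all genes that every line tested, 31.5% were called lower in at least 3 lines. In PANC-1 it fell from 145, 138 and 137 CPM with DMSO to 105, 108 and 98.4 CPM with carfilzomib, 0.741-fold (-0.43 ± 0.041, adjusted p in edgeR 4.4e-06), the largest fall of any of the 10 genes in any line. H-1299 libraries fell from 56, 46.6 and 54.9 CPM to 42.8, 42.9 and 40 CPM (-0.33 ± 0.073, adjusted p in edgeR 0.00169). H-23 libraries fell from 75, 71.1 and 71.8 CPM to 64.6, 58.8 and 68.6 CPM (-0.18 ± 0.053, adjusted p in edgeR 0.0155). No carfilzomib library reached the DMSO range in these lines. The H-23 call was lost without DMSO replicate 1 or carfilzomib replicate 2 (adjusted p in edgeR up to 0.0557) and in the joint fit of all libraries (0.0927).

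In RPMI, HDAC6 rose from 33.3, 39 and 36.4 CPM to 47.9, 47.3 and 41.4 CPM (0.32 ± 0.079, adjusted p in edgeR 0.00282). CAPAN-2 had 49.4, 54.1 and 56.6 CPM with DMSO and 48.8, 49.4 and 46.5 CPM with carfilzomib (-0.15 ± 0.064, adjusted p in edgeR 0.0694), a fall that passed without DMSO replicate 1 (adjusted p in edgeR 0.0268) and with library totals (0.0420). The CAPAN-2 values touch but do not overlap. H-929 had 41.4, 36.9 and 30.4 CPM with DMSO and 32.4, 40.3 and 47.5 CPM with carfilzomib (0.14 ± 0.149, but -0.03 in the joint fit of all libraries). DLD-1 had 91, 89.7 and 87.1 CPM against 86.7, 91.3 and 86.7 CPM (-0.02 ± 0.045), and RKO had 17.5, 15.6 and 17.1 CPM against 16.1, 20.3 and 20.1 CPM (0.17 ± 0.125). These 3 lines overlapped and were not called, with adjusted p in edgeR of 0.447, 0.821 and 0.465.

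Averaged over the 8 lines in a joint fit, 7 of the 9 genes with counts in every line were called higher (19.8% of 22309 genes) and 1 lower (23.9%). The average log2 fold change was 0.91 ± 0.020 (SE) for UFD1, 0.81 ± 0.024 for NSFL1C, 0.70 ± 0.020 for NPLOC4, 0.46 ± 0.021 for UBXN4, 0.46 ± 0.017 for VCP, 0.37 ± 0.021 for UBXN1 and 0.12 ± 0.020 for FAF2. UBXN6 averaged -0.01 ± 0.029 and was not called, and HDAC6 averaged -0.10 ± 0.033 (adjusted p in edgeR 0.00875). FAF1, over the 7 lines other than RPMI, averaged 0.18 ± 0.021 (adjusted p in edgeR 2.29e-09). The errors of these averages come from replicate libraries. When each of the 8 lines counted as 1 unit, limma called UFD1 (adjusted p 0.0376) and NSFL1C (adjusted p 0.0495) among 57 genes higher and 45 lower of 11622, with 2755 at an unadjusted p under 0.05. The averages of FAF2 and HDAC6 each rested on single lines: FAF2 averaged 0.05 without RPMI and was not called (adjusted p in edgeR 0.0966), and the call for HDAC6 was lost without H-23, H-1299 or PANC-1, without replicate 1 of every group (adjusted p in edgeR 0.195) and with library totals (0.0954).

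The response differed between the lines for all 9 genes (67.7% of all genes), with F from 6.21 for UBXN6 to 83.4 for VCP, and for FAF1 over 7 lines (F = 24.0, adjusted p in edgeR 6.88e-11). Within each tumour type the line with the larger response was the same for every gene that differed. In the colon lines, 4 genes differed (4.04% of all genes), all larger in DLD-1: UFD1 by 0.81 ± 0.085, NPLOC4 by 0.70 ± 0.081, NSFL1C by 0.60 ± 0.095 and VCP by 0.52 ± 0.067. In the lung lines, 8 differed (30.8%), all larger in H-1299, with NSFL1C first at 0.76 ± 0.092 and UBXN4 at 0.71 ± 0.083. In the pancreatic lines, 9 differed (24.9%), all larger in CAPAN-2, with UBXN4 at 1.15 ± 0.083 and VCP at 1.12 ± 0.067. For HDAC6 in the pancreatic lines, larger means a smaller fall, and this difference was lost with each other normalization and filter (adjusted p in edgeR 0.0651 to 0.123). In the myeloma lines, 5 differed (40.4%), all larger in RPMI, led by FAF2 at 1.14 ± 0.085, UBXN4 at 0.92 ± 0.084 and VCP at 0.90 ± 0.068. UFD1 differed by -0.02 ± 0.084 between the myeloma lines (adjusted p in edgeR 0.902), which is not shown to be the same response.

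Levels after DMSO were compared between lines on a scale common to all 48 libraries, and between genes per kb of exon. The order of the genes depends on the lengths used, which merge all annotated exons of a gene. VCP was the most abundant gene of the group per kb in every line but RKO, from 67.6 CPM per kb in RKO to 240.0 in H-23. In RKO, UBXN1 stood at 83.9 CPM per kb. Over the lines, VCP averaged 139 CPM per kb, UBXN1 37.5, UBXN4 34.1, FAF2 24.7, NPLOC4 22.5, UBXN6 14.2, FAF1 11.6, NSFL1C 9.55, UFD1 6.94 and HDAC6 5.91. In CPM, VCP was ordered as H-23 (1305 ± 34.8), H-1299 (1248 ± 29.4), PANC-1 (978 ± 8.3), DLD-1 (665 ± 15.5), H-929 (569.8 ± 7.99), RPMI (510.1 ± 33), CAPAN-2 (399.6 ± 22.4) and RKO (367 ± 24.1). Only the libraries of the first pair of neighbours in this order overlapped.

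The heterodimer parts did not have the same order. UFD1 was highest in H-1299 (112 ± 1.7 CPM) and H-929 (79.1 ± 2.18), and its 3 lowest lines, CAPAN-2, RKO and RPMI, at 42.2 ± 2.77, 41.8 ± 1.33 and 41.2 ± 3.5, overlapped. NPLOC4 was highest in PANC-1 (374 ± 10 CPM) and lowest in H-929 (124 ± 7.77). NSFL1C ran from 94.3 ± 1.78 in RKO to 35.4 ± 2.33 in H-929. HDAC6 varied most, from 139 ± 3.89 CPM in PANC-1 to 15 ± 1 in RKO, 9.25-fold, while the other genes with counts in every line varied 2.49-fold (UBXN4) to 3.98-fold (UBXN1). UBXN1 was highest in RKO (213 ± 14 CPM), FAF2 in PANC-1 (252 ± 9.55), UBXN4 in H-929 (240.4 ± 10.8) and UBXN6 in H-23 (115 ± 1.12). FAF1 was highest in H-1299 (116 ± 2.08 CPM), lower in CAPAN-2 (74.5 ± 4.17) and at 0 in RPMI. Between H-1299 and CAPAN-2 in this order stood H-23, DLD-1, H-929, PANC-1 and RKO, at 105 ± 3.51, 105 ± 0.976, 103 ± 5.22, 102 ± 2.99 and 98 ± 8.04 CPM, each overlapping the next.

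**Figure D4:**
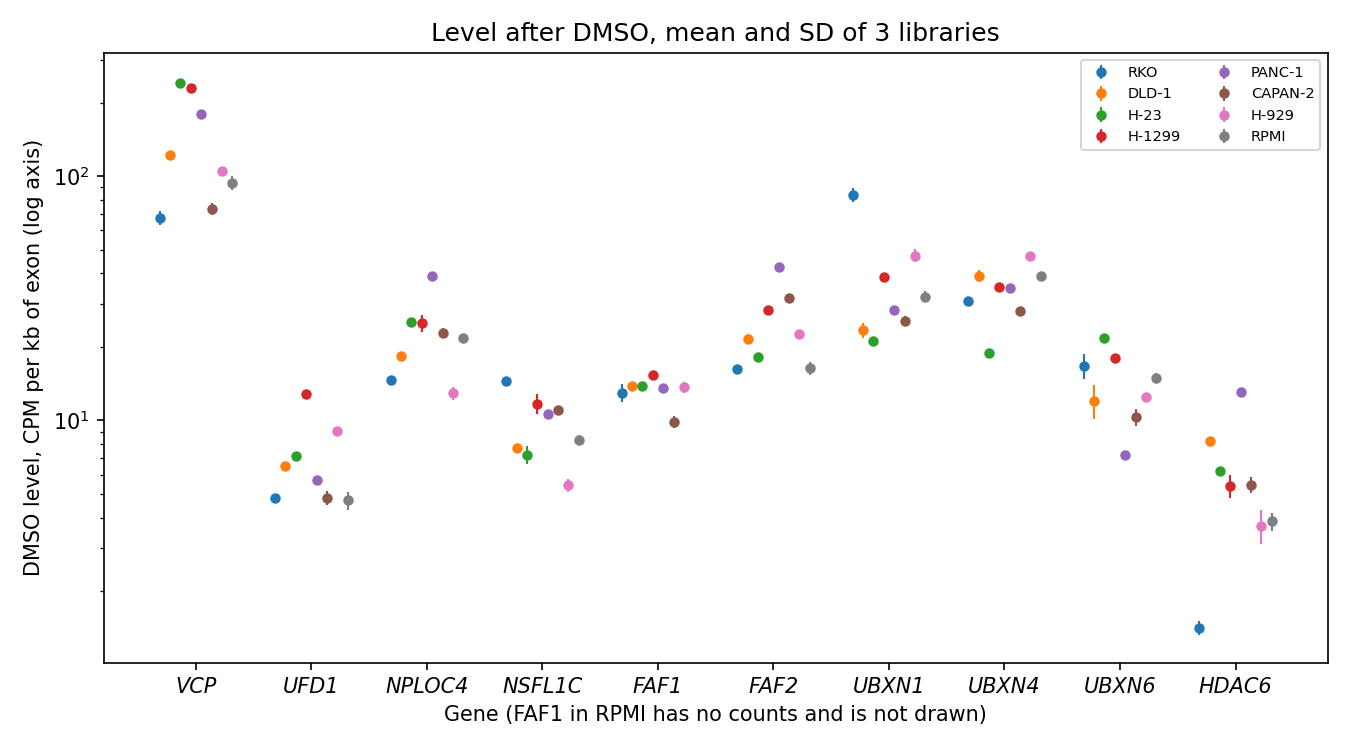
Level after DMSO of each gene (horizontal axis) in each of the 8 lines (colours), in CPM per kb of exon on a log axis, with points at the mean and bars at the SD of 3 libraries. VCP lies between 67.6 and 240.0 and HDAC6 spreads over the widest range, from 1.42 to 13.1.

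Other genes of the pathway were grouped in lists chosen with earlier results of these data known. Of 7 other UBX domain genes, 2 were called higher on average and 1 lower, with a median log2 fold change of 0.00. Over all genes in the joint fit, 19.8% were higher and 23.9% lower, with a median of 0.02, so these shares lie near the background. None was called in 1 direction in 6 lines or more. UBXN11 had the largest mean over its lines (0.34) and UBXN2B the smallest (-0.21, to -1.04 in H-929). Of 16 other partners of VCP, 9 were higher and 5 lower on average (19.8% and 23.9% of all genes), with a median of 0.12. PLAA, an adaptor for ubiquitin that works with VCP and UBXN6, was called higher in 6 lines (mean 0.68, to 1.34 in H-1299), and so were the ubiquitin ligase UBE4B (mean 0.41) and the deglycosylase NGLY1 (mean 0.22), which was lower in H-929 at -0.63. SVIP, an inhibitor of endoplasmic reticulum degradation that occupies VCP, had the smallest mean (-0.47) and was called lower in 5 lines.

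Of 12 ubiquitin shuttle and aggresome genes, 8 were higher and 3 lower on average (19.8% and 23.9% of all genes), with a median of 0.16. DYNC1H1, the motor heavy chain that carries cargo to the aggresome, was called higher in 7 lines (mean 0.60). BAG3, which directs misfolded proteins to aggresomes with HSP70, was called higher in 6 lines (mean 1.32), and UBQLN4 had the smallest mean (-0.15). SQSTM1, the receptor p62, had the largest mean (2.28) and was called higher in 6 lines, but its row shares an identifier with another and is uncertain. Release of the factor NFE2L1 from the endoplasmic reticulum needs VCP. Of its list of 3, NFE2L1 had the largest mean (0.28, from -0.30 in PANC-1 to 1.41 in RPMI), NGLY1 rose as given, and the protease DDI2 had the smallest mean (-0.27) and was lower in 4 lines.

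The proteasome subunits moved with VCP and its core partners across lines. Of 32 subunits tested in the joint fit, 30 were called higher and none lower (19.8% and 23.9% of all genes), with a median of 0.60, while the group's own median was 0.41 including FAF1. In the fits by line, 28 subunits were called higher in 6 lines or more. PSMA1, PSMA6, PSMB2, PSMB4, PSMB5, PSMB6, PSMB7, PSMC1, PSMC3, PSMC5, PSMC6, PSMD1, PSMD2, PSMD3, PSMD4, PSMD6, PSMD11, PSMD13, PSMD14 and ADRM1 were so in 7 lines, and PSMA2, PSMA4, PSMA5, PSMA7, PSMB1, PSMC2, PSMD8 and PSMD12 in 6. PSMD2, a regulatory particle subunit, had the largest mean of the subunits (0.91), and PSMC4 the smallest (-0.07), on a row that shares an identifier and spans -3.30 to 5.01. The line medians of the subunits were -0.02 in RKO, 0.39 in H-929, 0.42 in H-23, 0.53 in DLD-1, 0.61 in PANC-1, 0.85 in H-1299, 0.94 in RPMI and 1.27 in CAPAN-2. Over the 8 lines, Pearson's r with these medians was 0.90 for UFD1, 0.86 for VCP, 0.84 for UBXN4, 0.83 for NSFL1C, 0.74 for NPLOC4, 0.68 for FAF2, 0.63 for UBXN1, 0.38 for UBXN6 and -0.22 for HDAC6, and 0.81 for FAF1 over 7 lines. The points share libraries and depth, and these r are descriptions. UFD1 exceeded the median of the subunits in every line, among them H-929 at 1.12 against 0.39. NPLOC4 exceeded that median in DLD-1, H-1299, RPMI and H-929 (1.15 against 0.39). It stood below the median in RKO, H-23, CAPAN-2 and PANC-1 (0.26 against 0.61). VCP exceeded the median in RKO, DLD-1 and RPMI. It stood below in H-23, H-1299, CAPAN-2, H-929 and PANC-1 (0.13 against 0.61). These differences were not tested.

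**Figure D5:**
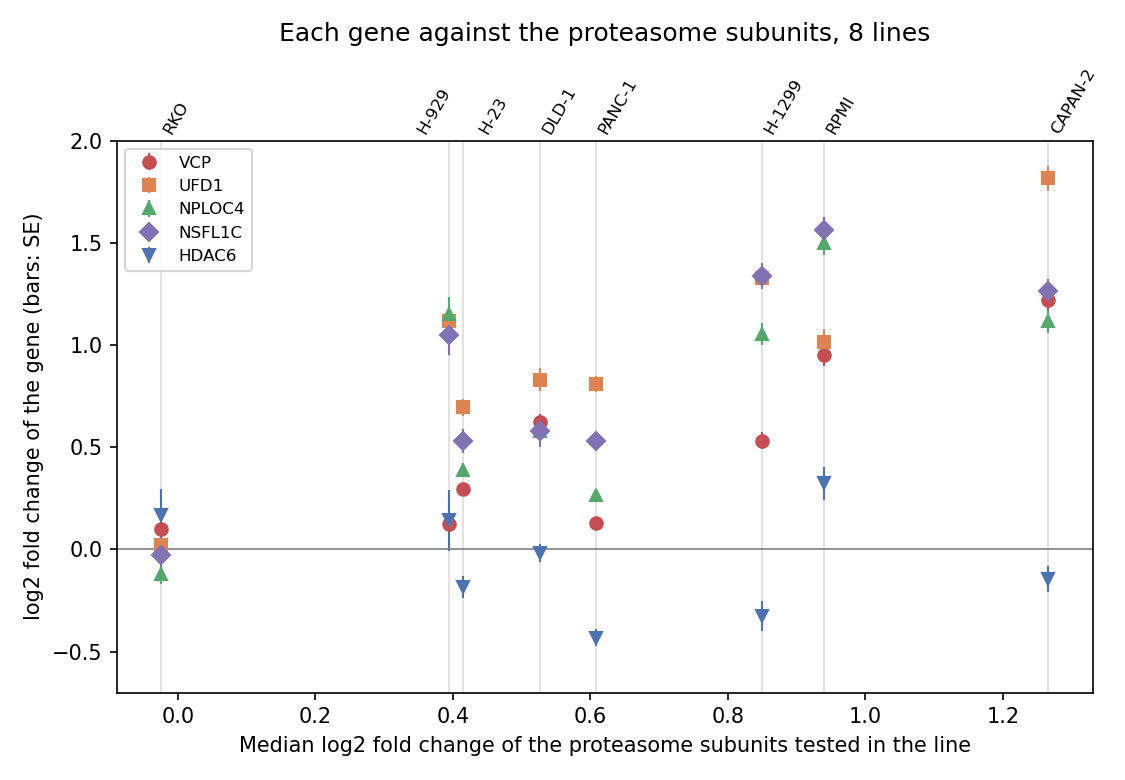
Log2 fold change of VCP, UFD1, NPLOC4, NSFL1C and HDAC6 (vertical axis, bars at the SE) against the median log2 fold change of the proteasome subunits in the same line (horizontal axis), with a grey line for each of the 8 lines. UFD1 climbs from 0.02 in RKO to 1.82 in CAPAN-2, while HDAC6 stays between -0.43 and 0.32.

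Among the genes of the group, the responses of NPLOC4 and NSFL1C were the most alike over the 8 lines (r = 0.97), followed by NPLOC4 and UBXN1 (0.93) and by the membrane adaptors FAF2 and UBXN4 (0.92). The least alike were FAF1 and HDAC6 (-0.78, 7 lines). Out of 9278 other genes with at least 10 CPM, those most like VCP were GOLGA3 (0.97), PSMB5 (0.95), AHCYL2, SIRT6 and TOM1 (each 0.94). GOLGA3 rose with VCP in CAPAN-2 and RPMI (0.89 and 0.79) and was near 0 in H-929 (-0.01), and PSMB5 was at 1.25, 0.69 and 0.31 in the same lines. Those most like HDAC6 were DCAF8 and LTBP4 (each 0.96), CCDC191 (0.96), C19orf54 and LOXL4 (each 0.94). Each has its lowest or near-lowest value in PANC-1 or H-1299 and its highest in RPMI, as HDAC6 does. With 8 points and 9278 candidates high r are frequent, and no test is given.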

How the data were processed

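RNA was measured as read counts per gene in 48 libraries. Per the labels, libraries were made with a stranded total RNA kit (TruSeq, Illumina), while the design text speaks of mRNA. The authors deposited raw counts with a symbol and an Ensembl identifier per row. Per the submitters' processing notes the tools were bcl2fastq 2.19, FastQC, Trimmomatic, HISAT2 and DESeq2, with the build hg38. The counting program, the annotation and the use of strand are not given in the sources used here.

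Each line was fitted on its own 6 libraries with edgeR 4.0.16 in R 4.3.3 (TMM, filterByExpr, quasi-likelihood F test), and all 48 libraries were fitted jointly with 1 coefficient for each of the 16 groups. Benjamini-Hochberg adjustment covered all genes tested. Limma 3.58.1 gave the average with lines as units. The joint values of FAF1 leave out RPMI, a choice made after seeing the data. Scripts were tested on simulated data. The alternatives were DESeq2 1.42.0, DESeq2's size factors, library totals, other filters, one fit of all libraries, the replicate number as a block, and repeats that left out a library, a replicate number or a line. Lengths, each the merged exons of all transcripts of a gene, and positions came from GENCODE 29.

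The 10 genes, the lists and the tests were chosen with earlier results of these data known. Per-library values are given in every line for VCP, UFD1, NPLOC4 and HDAC6, among which are the largest rise and fall. For the other genes of the group they are given only in chosen lines. Other list genes are named when called in 1 direction in at least 6 lines or when their mean was the largest or smallest of the list. The 5 genes most like VCP and HDAC6 were named among genes of at least 10 CPM tested in all lines, with 1 row per identifier. Every library was kept: the lowest chi-square per degree of freedom between replicates was 3.47, above that of counting noise. No mitochondrially encoded gene was among the rows, so that sign of RNA quality was not examined. In a bulk library, fewer cells of a kind and less RNA per cell cannot be told apart. NKX2-1 was not among the rows.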

Additional observations from a re-analysis of the deposited data

Results flagged for a closer look

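The results below were picked out because the response of a gene differed between the lines of a tumour type in a test of the difference itself (edgeR's joint fit, adjusted p under 0.05). Each value is a difference of log2 fold changes. A pair of lines cannot stand for a tumour type.

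In the colon lines, DLD-1 exceeded RKO for the ATPase and its 3 ubiquitin-binding partners: VCP by 0.52, UFD1 by 0.81, NPLOC4 by 0.70 and NSFL1C by 0.60. In the lung lines, H-1299 exceeded H-23 by 0.19 for VCP, 0.59 for UFD1, 0.62 for NPLOC4, 0.76 for NSFL1C, 0.32 for FAF1, 0.38 for FAF2, 0.31 for UBXN1 and 0.71 for UBXN4. The VCP difference was lost without replicate 1 or replicate 2 in all lines (adjusted p in edgeR 0.244 and 0.111), and that of UBXN1 without replicate 2 (adjusted p in edgeR 0.0976).

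In the pancreatic lines, CAPAN-2 exceeded PANC-1 by 1.12 for VCP, 1.03 for UFD1, 0.88 for NPLOC4, 0.76 for NSFL1C, 0.70 for FAF2, 0.47 for UBXN1, 1.15 for UBXN4, 0.41 for UBXN6 and 0.31 for HDAC6. FAF2 was called higher in CAPAN-2 and lower in PANC-1. The HDAC6 difference was lost under 7 alternatives, among them each other normalization and filter (adjusted p in edgeR 0.0651 to 0.282), and that of UBXN6 without replicate 3 (adjusted p in edgeR 0.118).

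In the myeloma lines, RPMI exceeded H-929 by 0.90 for VCP, 0.43 for NPLOC4, 0.60 for NSFL1C, 1.14 for FAF2 and 0.92 for UBXN4. FAF2 was called higher in RPMI and lower in H-929. Carfilzomib libraries of H-929 had 9.12 to 9.93 M counts, the lowest totals of the series. The part of depth in these differences was not tested. They are on the scale of the joint fit, which sets log2 fold changes lower than the fits by line, by 0.163 in H-929 and 0.0792 in RPMI.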

How the results depend on the processing

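Of the 79 values of a gene in a line, all 79 kept their direction and call with DESeq2's size factors, with DESeq2's test and with the replicate block, 71 with library totals, 72 in one fit of all 48 libraries, and 77 with either other filter. No called value changed direction. The remaining ones gained or lost a call or were small values, never called, that crossed 0. Leaving out 1 library at a time kept 454 of 474 values, lost 7 calls and gained 3. Counts that moved by over 1.5 times were the genes higher in RKO (0, but 1 with library totals), lower in H-23 (1, but 2 with library totals or without a filter, 0 in one fit, and 0 to 2 without single libraries) and lower in CAPAN-2 (0, but 1 with library totals, and 0 to 1 without single libraries). Smaller moves were 6 in place of 4 genes higher in H-929 with the filter of at least 50 counts, and moves by 1 gene higher in DLD-1, PANC-1 and RPMI and lower in PANC-1. On average over the lines, 7 genes were higher, but 2 with lines as the units. The 1 gene lower, HDAC6, was 0 with library totals, with lines as the units and without H-23, H-1299 or PANC-1, and 0 to 1 when a replicate number was left out. The cause was not tested. Library totals moved the median of all genes in H-1299 by -0.11. Without a filter that median was 0.32 in H-929, against 0.03.

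Same-numbered replicates of the treatments did not deviate together (correlations -0.095 to 0.060 over 8 lines). This gives no sign that the numbers pair samples, but cannot exclude that they were handled together. With the replicate block, 49 pairs were higher and 6 lower, as without it, and 8 pancreatic differences were called in place of 9. Counts over all genes were least stable in RKO (525 higher; 805 with library totals, 794 without a filter, 197 to 482 without single libraries) and DLD-1 (1812 higher; 1096 to 1870).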
